A study of Mus musculus with 4 samples.

Results

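Cathepsins are the proteases of endosomes and lysosomes, and the 10 described here are Ctsa, Ctsb, Ctsc, Ctsd, Ctse, Ctsh, Ctsk, Ctsl, Ctss and Ctsz, taken by name from the 54532 genes listed in the files. They were measured by poly-A RNA sequencing of brain tissue from C57BL/6 mice in 4 libraries, 1 per group. The young naive and old naive groups carried no tumor. In the young tumor-bearing and old tumor-bearing groups the brain had received 50000 cells of GL261, a C57BL/6 mouse glioma line, and tissue outside the tumor was taken on day 21. Young mice were 8 to 12 weeks old. For the old mice the stated range runs from 8 to 90 weeks, so old is used only as a label. The labels list the treatment as none throughout, and the naive samples carry the same GL261 tag as the others. How many mice stand behind a library is not stated. With 1 library per group no difference below has a replicate check, no test between groups was made, and each statement compares libraries.

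Most cathepsins are cysteine proteases of the papain family, while cathepsins D and E are aspartic proteases and cathepsin A is a serine carboxypeptidase. They are made as inactive precursors, carried to endosomes and lysosomes mainly on mannose phosphate receptors, and activated by the acid there. In the brain, cathepsins B and D are found in neurons and glia, and cathepsin S is typical of microglia and macrophages, where it trims the invariant chain from MHC class II molecules.

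The values are FPKM, scaled to gene length and depth. The length is that of all annotated exons of a gene, from 1358 bases (Ctss) to 6489 bases (Ctsl) among members. The order of levels between genes depends on it. A fold is a ratio of FPKM, and the interval after it is an exact 95% interval of the reads behind it, which covers counting error only. A gene counts as tested where either library of the pair reached 1 FPKM. Log2 ratios were taken after adding 0.1 to each FPKM, and so understate differences of weakly expressed genes. Of the 10 members 9 passed this floor in every comparison, and Ctse passed it in none.

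Fragments in genes numbered 23261886 and 21887483 in the young naive and tumor-bearing libraries, and 19611830 and 19557451 in the old ones. All 8 neuron markers checked were detected in each library, with summed levels of 1066, 939, 1390 and 285 FPKM in that order. The old tumor-bearing library stood apart. Its 7 markers of proliferating cells summed to 143 FPKM, against 1.03, 6.70 and 0.538 FPKM in the others, and the part of this in the results below was not tested. Choroid plexus markers summed to 6.98 FPKM in the old naive library and to 395 to 456 FPKM in the others, and its part was likewise not tested. In bulk tissue, more cells of a type and more RNA per cell cannot be told apart.

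Promoters are shown for 4 members, chosen after their values were seen. Ctss was higher in both tumor-bearing libraries and Ctsc had the widest range. Ctsd had the highest FPKM in the old tumor-bearing library, and Ctsk was the only member lower there. Each promoter is the 250 bases before a start site of the RefSeq table (GRCm38.p6), 5′ to 3′ on the strand of the gene. In the order above they are at chr3:95526536-95526785 (plus strand), chr7:88277835-88278084 (plus), chr7:142387828-142388077 (minus) and chr3:95498960-95499209 (plus). The RefSeq start of Ctsd lies within the gene span given below, and so does most of its window. Capitals mark matches to the motifs named after the sequences.
Ctss: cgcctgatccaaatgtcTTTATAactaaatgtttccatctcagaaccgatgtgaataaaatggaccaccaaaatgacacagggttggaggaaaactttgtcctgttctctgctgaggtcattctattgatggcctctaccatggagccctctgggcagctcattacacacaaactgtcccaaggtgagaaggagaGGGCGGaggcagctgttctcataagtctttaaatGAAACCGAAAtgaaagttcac
Ctsc: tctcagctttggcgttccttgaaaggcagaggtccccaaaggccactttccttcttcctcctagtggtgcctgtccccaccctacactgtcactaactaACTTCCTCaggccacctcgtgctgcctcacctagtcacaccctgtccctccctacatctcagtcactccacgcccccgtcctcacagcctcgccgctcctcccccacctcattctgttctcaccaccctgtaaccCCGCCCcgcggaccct
Ctsd: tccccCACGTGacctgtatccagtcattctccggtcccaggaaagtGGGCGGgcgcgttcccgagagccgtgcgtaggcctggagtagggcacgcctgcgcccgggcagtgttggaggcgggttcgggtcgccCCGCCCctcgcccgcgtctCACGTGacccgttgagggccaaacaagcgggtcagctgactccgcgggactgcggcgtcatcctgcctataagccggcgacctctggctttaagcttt
Ctsk: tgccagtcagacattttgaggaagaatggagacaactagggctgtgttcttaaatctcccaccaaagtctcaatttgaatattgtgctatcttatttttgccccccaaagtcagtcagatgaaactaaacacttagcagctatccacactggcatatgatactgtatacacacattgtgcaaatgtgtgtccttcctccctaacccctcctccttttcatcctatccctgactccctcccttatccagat

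The table held 7 of the members, with 8 start sites among 32851 in all. Ctsb, Ctse and Ctsh had no entry. Each motif was searched on both strands. CACGTG, the core of the CLEAR element that TFEB and TFE3 bind at lysosomal genes, was in 6.02% of all windows and in those of Ctsa (1 of its 2 start sites), Ctsd and Ctsl. In Ctsd it begins 245 and 98 bases before the RefSeq start. By the gene spans given below, the match at 98 bases and those of Ctsa and Ctsl lie inside the annotated genes. The interferon-stimulated response element was in 2.98% of windows and, among members, in that of Ctss, 21 bases before the start. GAGGAAGT, a core of sites for the myeloid factor PU.1, was in 2.44% of windows and in that of Ctsc, 151 bases before the start. The GC box GGGCGG (32.7% of windows) was in those of Ctsc, Ctsd, Ctss and Ctsz, TATAAA (12.4%) in that of Ctss, 233 bases before the start, and the AP-1 motif TGANTCA (6.75%) in none. The Ctsk window matched none of the 6 motifs. A match is a description of letters, not a binding site.

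Among the papain-type endopeptidases, Ctss (ENSMUSG00000038642, at 95526786 to 95556403 on chromosome 3 of mm10) had 36.7 and 81.4 FPKM in young naive and tumor-bearing tissue, and 50.9 and 288 FPKM in old naive and tumor-bearing tissue. Both tumor-bearing libraries were above both naive ones. Among the genes coding for proteins its level ranked 1375, 404, 1042 and 63 in that order. Ctsl, a cathepsin of most cell types that also acts on the invariant chain, was at 12.2, 12.9, 11.5 and 97.2 FPKM. Only the old tumor-bearing library was high. Ctsk, the collagen-degrading cathepsin of osteoclasts, was low everywhere, at 2.49, 2.65, 3.25 and 1.28 FPKM, and lowest in the old tumor-bearing library with 45 reads against 77 to 80.

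Exopeptidases trim protein ends. Ctsb, which also cuts within proteins, was the most abundant member by FPKM in 3 libraries, at 115, 102, 116 and 164 FPKM in the same order. Its highest level was 1.60 times its lowest, the narrowest range of the members with a level above 0 in every library. Ctsz (cathepsin X), a carboxypeptidase, was at 24.0, 31.6, 32.1 and 215 FPKM, again with the old tumor-bearing library far above the rest. Ctsh, an aminopeptidase, was at 2.96, 4.0, 2.34 and 15.9 FPKM. Ctsc, the dipeptidyl peptidase that activates granule serine proteases, was at 2.03, 3.77, 1.08 and 12.9 FPKM and had the widest range, 12.0-fold from the old naive to the old tumor-bearing library.

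Of the other classes, Ctsd, the main lysosomal aspartic protease, was at 98.4, 96.8, 98.0 and 321 FPKM. The first 3 libraries were alike to within 1.02-fold, and the old tumor-bearing one was 3.31 times the lowest. Ctse, an aspartic protease of immune and gastric cells, had 0, 3, 3 and 17 reads, at most 0.231 FPKM. Ctsa, the serine carboxypeptidase that protects neuraminidase and beta-galactosidase, was at 20.7, 22.2, 25.4 and 37.8 FPKM. Ctsa, Ctsb and Ctsz overlap protein-coding genes on the opposite strand (Pltp and Neurl2, Fdft1, and Nelfcd), and the labels leave open whether the libraries kept strand. Reads of such pairs cannot be told apart.

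In mm10 the members lie on 7 chromosomes. On the plus strand are Ctsa (chromosome 2, 164832873 to 164841032), Ctsb (14, 63122462 to 63145923), Ctsc (7, 88278085 to 88310888), Ctse (1, 131638306 to 131675505), Ctsh (9, 90054152 to 90076089) and Ctsk (3, 95499256 to 95509362), besides Ctss. On the minus strand are Ctsd (7, 142375911 to 142388038), Ctsl (13, 64359337 to 64370890) and Ctsz (2, 174427493 to 174439039). The values are over all exons of each gene.

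**Figure D1:**
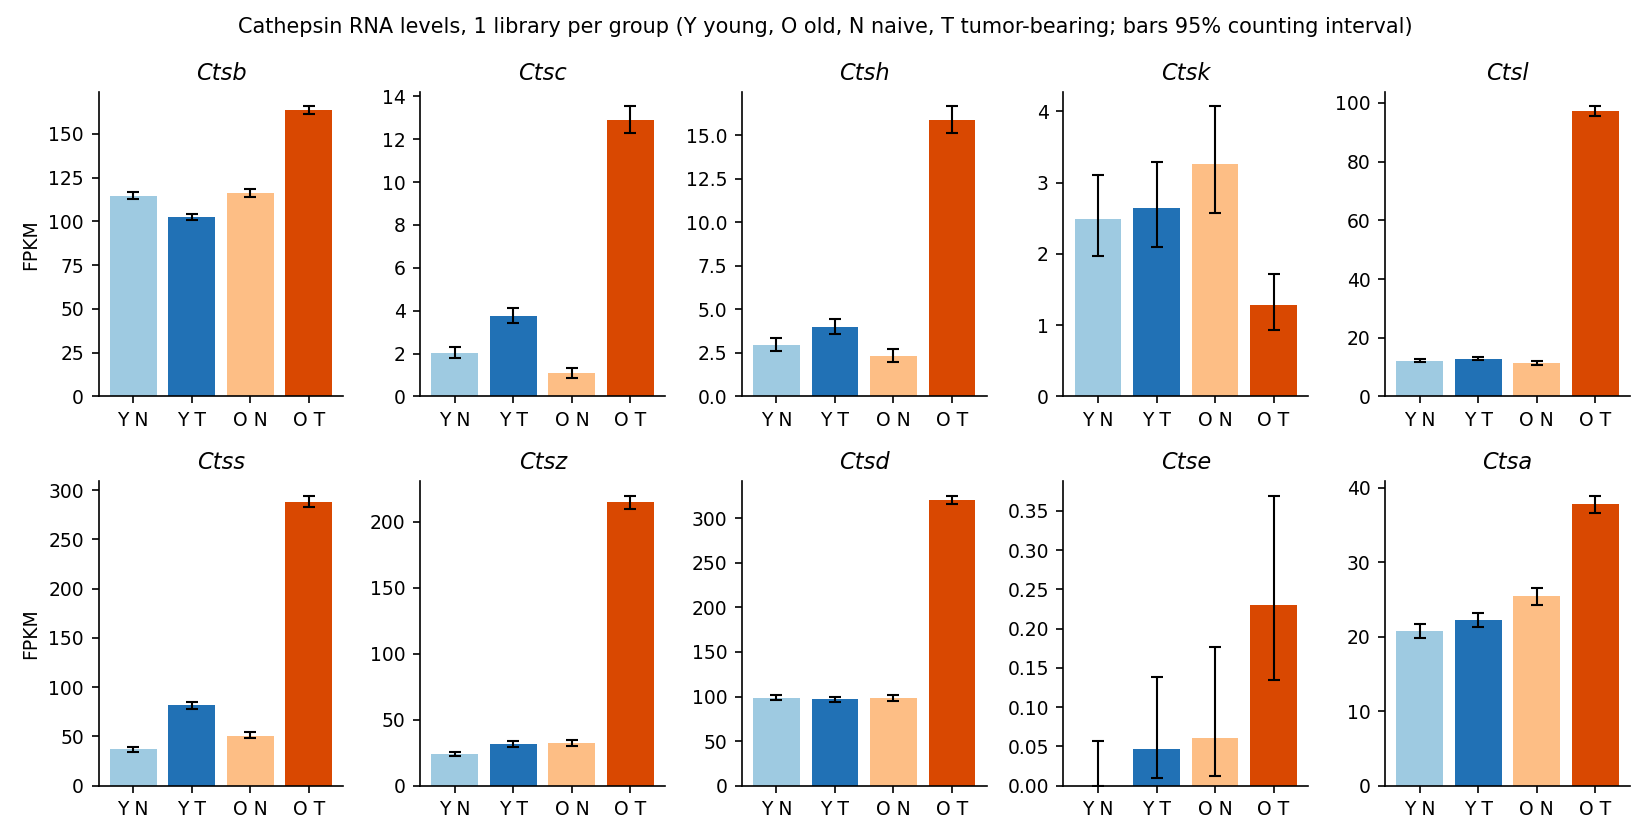
FPKM (vertical axes, each from 0 and on its own scale) of the 10 cathepsins in the 4 libraries, with exact 95% Poisson intervals of the reads as error bars. The old tumor-bearing library is highest for 9 members and lowest for Ctsk (1.28 FPKM), and in the young pair the intervals lie apart for, among others, Ctss (81.4 against 36.7 FPKM) and Ctsc (3.77 against 2.03 FPKM).

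The first comparison asked how tissue outside the tumor of young mice differed from young naive brain. Ctss was 2.22-fold higher in the tumor-bearing library (2.06 to 2.39) and was the only one of the 9 members tested that was at least 2-fold apart. Over all 15500 genes tested, 5.05% were at least 2-fold higher and 1.85% at least 2-fold lower. The median log2 ratio of the 9 members was 0.10, beside -0.01 over all genes. Among 12867 protein-coding genes, the ratio of Ctss was the 238th highest and that of Ctsc, 1.86-fold higher (1.58 to 2.18), the 389th.

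Smaller differences beyond counting error were seen in both directions. Ctsh was 1.35-fold higher (1.15 to 1.59), Ctsz 1.32-fold (1.19 to 1.45) and Ctsa 1.07-fold (1.01 to 1.14), though median-of-ratios scaling left Ctsa within counting error (1.04-fold, 0.977 to 1.11). Ctsb was 1.12-fold lower (1.09 to 1.15) under the deposited scaling, and stayed lower under the other 4 scalings. Ctsl (1.06-fold, 0.987 to 1.13), Ctsk (1.06-fold, 0.767 to 1.47) and Ctsd (1.02-fold lower, 0.976 to 1.06) did not differ beyond counting error as deposited. Ctsl was higher beyond it under 3 of the other 4 scalings (at most 1.11-fold, 1.04 to 1.19). The log2 ratio of Ctsd turned positive (at most 0.05) under 3, and under median-of-ratios scaling Ctsd was 1.05-fold lower (1.01 to 1.09). Without Ctss, the summed FPKM of the other members was 0.995 times that of the naive library, so the 1.14-fold higher total lay almost wholly in Ctss.

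The second comparison asked the same of old mice. Of the 9 members tested, 6 were at least 2-fold higher, where 20.6% of all 16488 genes were, and 1 was at least 2-fold lower, where 31.4% were. The median of the members was 2.50, beside -0.31 over all genes. The 6 were Ctsc at 12.0-fold (9.76 to 14.8), Ctsl at 8.44-fold (7.95 to 8.96), Ctsh at 6.77-fold (5.76 to 7.99), Ctsz at 6.69-fold (6.20 to 7.23), Ctss at 5.67-fold (5.32 to 6.04) and Ctsd at 3.27-fold (3.16 to 3.39). They thus include the endopeptidases of antigen processing, exopeptidases and the aspartic protease. In the order of log2 ratios among 13563 protein-coding genes they stood between places 650 (Ctsc) and 1614 (Ctsd).

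Ctsa and Ctsb were within 2-fold on the deposited scale, at 1.49-fold (1.41 to 1.57) and 1.41-fold (1.38 to 1.44) higher. Scaled by fragments in genes, their log2 ratios became 1.14 and 1.07, past 2-fold. With equal FPKM totals Ctsa was also just past it (2.005-fold, 1.90 to 2.12). Ctsk was 2.54-fold lower (1.74 to 3.76), or -1.28 on the log2 scale, against -0.74 after scaling to fragments in genes. It was lower under all 5 scalings and, on that scale, at least 2-fold lower only under the deposited one. Ctse, below the floor, had 3 and 17 reads (3.81-fold, 1.10 to 20.3). The split of all genes also depends on scaling: 3395 higher and 5171 lower as deposited became 4218 and 4082 to 5011 and 3356 under the others, which raised the median of all genes by 0.32 to 0.56.

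**Figure D2:**
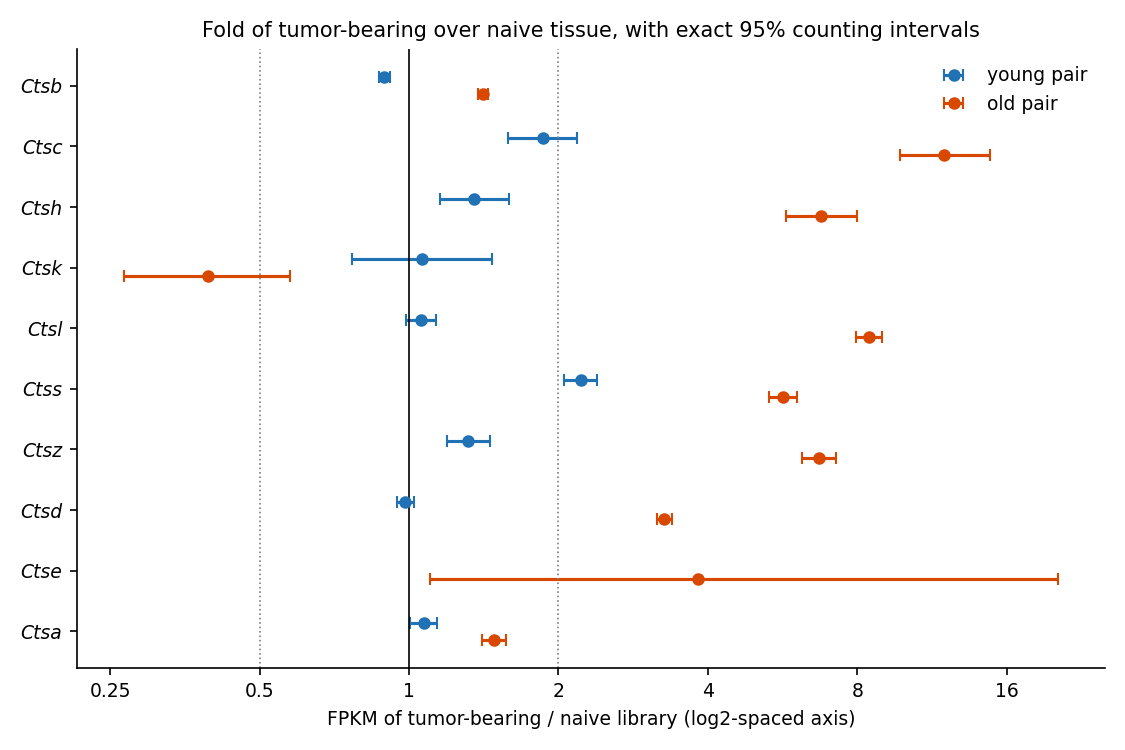
Fold of tumor-bearing over naive FPKM (horizontal axis, log2-spaced) for each cathepsin in the young and the old pair, with exact 95% counting intervals and dotted lines at 2-fold. In the young pair Ctss alone lies beyond 2-fold, while in the old pair 6 of 9 tested members lie above it (Ctsc farthest, 12.0-fold), Ctsa and Ctsb below it and Ctsk at 2.54-fold lower. Ctse, below the floor, is drawn for the old pair.

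**Figure D3:**
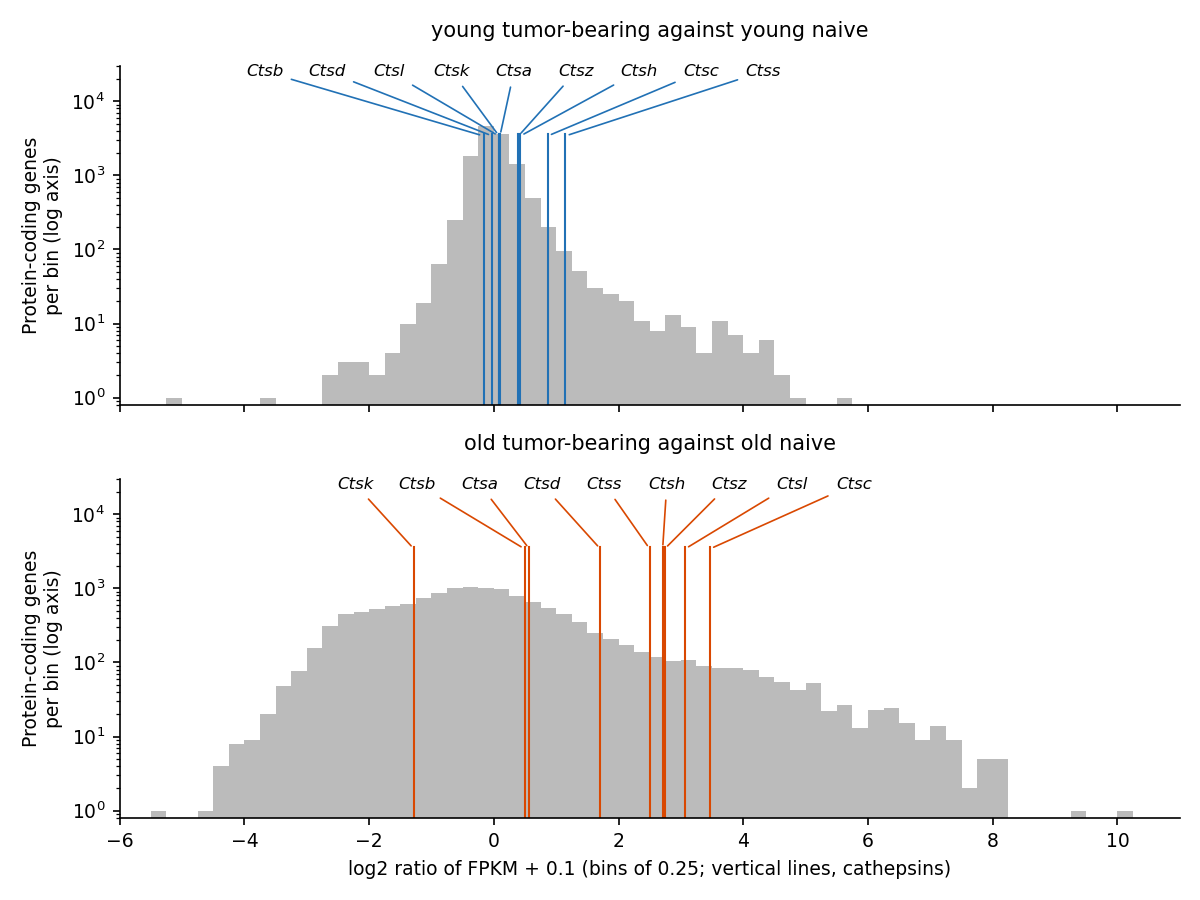
Log2 ratios of FPKM + 0.1 of all tested protein-coding genes (grey bars, genes per bin of 0.25 on a log axis) with the 9 tested cathepsins as vertical lines, for the young pair (upper panel, 12867 genes) and the old pair (lower panel, 13563 genes). In the young pair the lines lie between log2 ratios of -0.16 (Ctsb) and 1.15 (Ctss), and in the old pair between -1.28 (Ctsk) and 3.46 (Ctsc).

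The old log2 ratio minus the young one, which has no test here, was at least 1 for 6 of 9 members, where 19.3% of 17441 genes were, and at most -1 for 1, where 32.0% were. Ctsl had the largest difference, at 2.99, followed by Ctsc (2.60), Ctsz (2.34), Ctsh (2.28), Ctsd (1.73) and Ctss (1.35). Ctss, the member furthest apart in the young pair, was thus the last of the 6. As deposited, Ctsb (0.66) and Ctsa (0.47) differed less between ages, and Ctsk was at -1.37. The difference of Ctsb passed 1 with equal FPKM totals, median-of-ratios scaling and fragments in genes. Of all genes, 4466 to 4950 did so under these, against 3372 as deposited.

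The naive libraries of the old and the young mice were compared next. They differ by more than the age label: all 5 choroid plexus markers tested were at least 2-fold lower in the old one, with sums of 412 and 6.98 FPKM, and the part of this was not tested. No member was at least 2-fold apart between old and young naive libraries, where 6.71% of 15419 genes were higher and 4.93% lower, and the median was 0.02 beside 0.06 over all genes. Ctsc came closest, 1.88-fold lower in the old library (1.48 to 2.41), and its log2 ratio of -0.85 became -1.06 with equal FPKM totals. Ctsh was 1.26-fold lower (1.04 to 1.54). Ctss was 1.38-fold higher (1.27 to 1.51), Ctsz 1.34-fold (1.20 to 1.49) and Ctsa 1.23-fold (1.15 to 1.31). As deposited, Ctsb, Ctsd, Ctsk and Ctsl did not differ beyond counting error. These calls depend on scaling: with equal FPKM totals Ctsb was 1.16-fold (1.13 to 1.19), Ctsd 1.18-fold (1.13 to 1.23) and Ctsl 1.24-fold lower (1.15 to 1.34), and the interval of Ctsa (1.05-fold, 0.983 to 1.12) reached 1. The microglia markers summed to 104 FPKM in the young and 135 FPKM in the old naive library.

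Between the tumor-bearing libraries, old against young, the same 6 members were past 2-fold upward and 0 downward, where 19.0% and 29.8% of 16562 genes were. This comparison shares the old tumor-bearing library with the one above. Ctsl was 7.56-fold higher (7.18 to 7.95), Ctsz 6.80-fold (6.35 to 7.30), Ctsh 3.96-fold (3.53 to 4.45), Ctss 3.54-fold (3.38 to 3.71), Ctsc 3.42-fold (3.08 to 3.81) and Ctsd 3.31-fold (3.21 to 3.42). Ctsa and Ctsb also passed 2-fold under median-of-ratios scaling (2.24-fold and 2.10-fold) and scaled by fragments in genes (2.21-fold and 2.08-fold). Of all genes 4270 and 4220 were then higher, against 3155 as deposited. Ctsk was 2.07-fold lower (1.42 to 3.05) as a ratio of FPKM, and just within 2-fold on the log2 scale with 0.1 added (-0.99).

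A share of the summed cathepsin level within a library does not depend on scaling between libraries. The 10 members summed to 314 and 358 FPKM in young naive and tumor-bearing tissue, and to 341 and 1153 FPKM in old. Ctsb and Ctsd together held 67.8%, 55.7%, 62.8% and 42.0% of it. Ctss, Ctsz and Ctsl together held 23.2%, 35.2%, 27.7% and 52.1%. By FPKM, the lysosomal pair common to most brain cells thus made up the larger part in the naive libraries and the smaller part in the old tumor-bearing one. This depends on the scaling to gene length. By reads, Ctsb held 29.1% and Ctsd 22.15% in the old tumor-bearing library, against 11.5% for Ctss, 9.10% for Ctsz and 18.5% for Ctsl. The pair was then the larger part there too.

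Within that makeup, Ctss went from 11.7% (young naive) to 22.8% (young tumor-bearing) and from 14.9% (old naive) to 25.0% (old tumor-bearing). Ctsz differed little in the young pair (7.63% and 8.83%) and more in the old pair (9.42% and 18.6%). Ctsl was at 3.87%, 3.60%, 3.38% and 8.44%. Ctsb held 36.5%, 28.6%, 34.1% and 14.2%, and was first in all but the old tumor-bearing library, where Ctsd led with 27.8%. The cysteine proteases as a class held 62.1% to 68.9%.

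**Figure D4:**
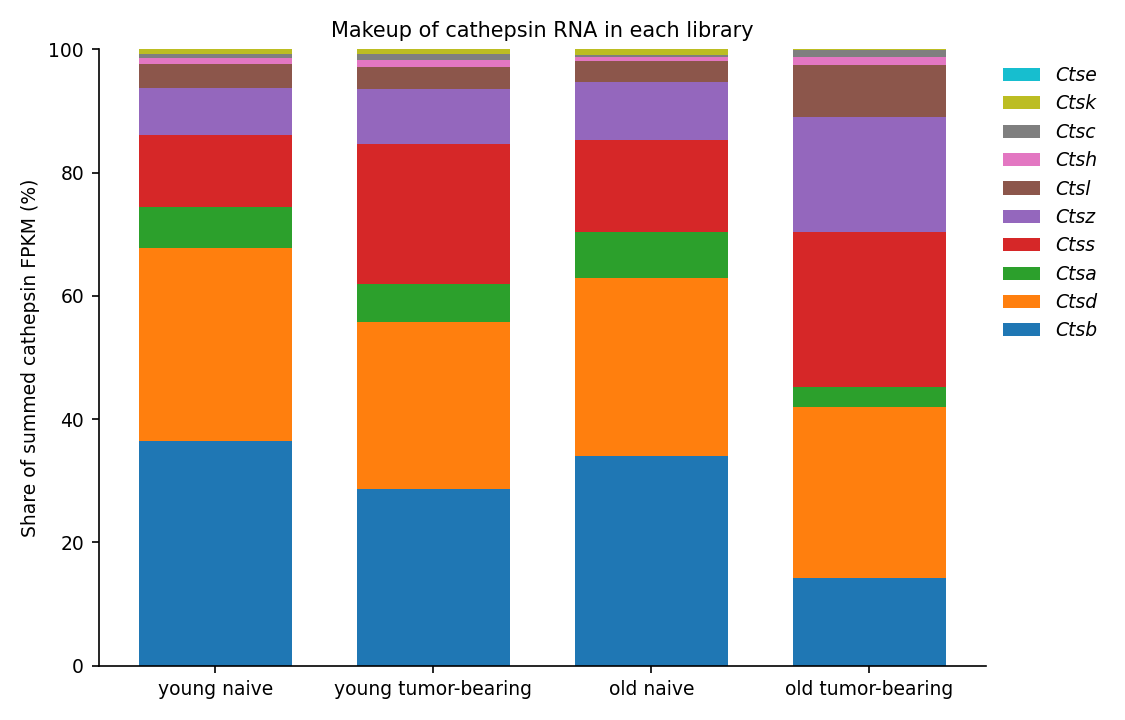
Share of each cathepsin in the summed FPKM of the 10 members (vertical axis, percent) in the 4 libraries. Ctsb (bottom) takes 36.5% in young naive and 14.2% in old tumor-bearing tissue, while Ctss takes more of each tumor-bearing library than of its naive one (22.8% against 11.7%, and 25.0% against 14.9%).

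Microglia and macrophages are rich in cathepsins, so their markers are given beside these values. The 10 microglia markers were all detected and summed to 104, 129, 135 and 159 FPKM (young naive and tumor-bearing, then old). Within the list, 0 of 10 were at least 2-fold higher in the young pair, and 1 higher and 1 lower in the old pair (median log2 ratios 0.37 and 0.13). Over all genes tested, 5.05% were that much higher and 1.85% lower in the young pair, and 20.6% and 31.4% in the old. The 10 monocyte and macrophage markers summed to 12.4, 38.1, 18.5 and 283 FPKM, with Ly6c2 at 0 in the young naive library. Of these, 2 of 5 tested were at least 2-fold higher in the young pair and 7 of 9 in the old pair (medians 0.31 and 3.62), but 1 of the 5 and 6 of the 9 reached 1 FPKM in the tumor-bearing library alone and so had to be higher. Lyz2, lysozyme, named after its values were seen, made up most of that sum, at 6.47, 28.2, 12.1 and 244 FPKM.

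Per 100 FPKM of microglia markers, Ctss was at 35.3, 63.2, 37.7 and 182 FPKM in the same order, and Ctsz at 23.1, 24.5, 23.8 and 136. Ctsb was at 110, 79.6, 86.1 and 103, with no common direction. Per 100 FPKM of monocyte and macrophage markers, Ctss was at 296, 214, 275 and 102 instead, lower in each tumor-bearing library. The 2 marker lists therefore order the libraries in opposite ways for Ctss, and the part of either cell type in its level was not tested. Markers of other blood cells were lower: T and NK cell markers summed to 2.21, 5.46, 4.44 and 28.5 FPKM, dendritic cell markers to 8.15, 9.93, 6.38 and 18.0 FPKM, and neutrophil markers to 5.13, 4.94, 11.4 and 10.9 FPKM, with Ly6g at 0 in all but the young naive library.

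Of 13 other cathepsin genes, 3 reached 1 FPKM in a library. Ctsf, a papain-type protease, was at 33.2, 37.1, 35.3 and 10.3 FPKM, that is 1.12-fold higher in the young pair (1.07 to 1.17) and 3.42-fold lower in the old pair (3.19 to 3.66). Ctso was at 7.30, 6.86, 6.56 and 5.33 FPKM, within 2-fold throughout. Ctsw, a cathepsin of NK and cytotoxic T cells, had 38, 31, 17 and 208 reads and was 8.32-fold higher in the old pair (5.02 to 14.4). Ctsg, a serine protease of neutrophil granules, had 0 reads in 3 libraries and 16 in the old tumor-bearing one, at least 3.59-fold higher than the 3 reads a count of 0 allows, and was named after its values were seen. The other 9, including the cathepsins of placenta, were listed at 0 in all 4 libraries. Ctsf and Ctso were thus lower in the old tumor-bearing than in the old naive library, and Ctsw and Ctsg higher. Ctsw reached 1 FPKM in the old tumor-bearing library alone and so had to be higher, and Ctsg reached it in none. Neuron markers summed to 1390 and 285 FPKM in the old naive and tumor-bearing libraries, and their part was not tested.

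Several genes that restrain cathepsins were also higher in the tumor-bearing libraries. Of the 13 listed inhibitors, in the young pair 4 of 9 tested were higher by 2-fold or more and 0 lower (median 0.86), and in the old pair 6 were higher and 1 lower (median 2.01), beside 5.05% and 20.6% of all genes higher. In each pair 2 of the 9 reached 1 FPKM in the tumor-bearing library alone, so the counts are partly set by the floor. The lower call, Cst3, was lost under the other 4 scalings. Cst7, cystatin F, which inhibits the activation of granule proteases by cathepsin C, had 0 and 27 reads in the young pair (at least 9.20-fold higher) and 4 and 557 in the old pair (93.7-fold, 36.4 to 345). Cst6, cystatin M/E, was 2.54-fold (1.99 to 3.30) and 4.20-fold higher (3.43 to 5.17), and Cstb, a cytosolic inhibitor of cathepsins, 1.82-fold (1.60 to 2.07) and 4.63-fold (4.08 to 5.26). Serpina3g, a serpin that inhibits cysteine cathepsins, was 5.27-fold (2.88 to 10.4) and 42.6-fold higher (21.5 to 99.3). Cst3, cystatin C, the major secreted inhibitor in brain and named here after its values were seen, was at 677, 625, 779 and 386 FPKM.

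Among 11 genes of cathepsin processing and sorting, 0 were 2-fold apart in the young pair (median 0.02), and 1 was higher and 3 lower in the old pair (median -0.37). Over all genes, 20.6% were higher and 31.4% lower in the old pair, so the lower ones were at a share near that of all genes. Scaled by fragments in genes, 2 were higher and 1 (Sort1) lower, with a median of 0.20. Under that scaling 5011 of all 16488 genes were higher and 3356 lower, with a median of 0.26. The higher one as deposited was Grn, progranulin, a lysosomal protein that binds cathepsin D, at 16.6, 21.6, 18.6 and 122 FPKM, 6.58-fold in the old pair (6.16 to 7.02). Sort1, the sorting receptor sortilin, was 4.41-fold lower (4.26 to 4.57), Gnptg, a subunit of the enzyme that makes the mannose phosphate tag, 2.61-fold lower (2.37 to 2.88) and Tmem106b, a lysosomal membrane protein, 2.19-fold lower (2.07 to 2.32). Igf2r, the large mannose phosphate receptor, was 1.43-fold higher in the young pair (1.31 to 1.56) and 1.90-fold lower in the old (1.72 to 2.10). Lgmn, the protease that cuts cathepsin precursors to mature chains, was at 53.8, 55.0, 48.1 and 89.8 FPKM and was named after its values were seen.

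The other lysosomal genes are given by list. Of the lysosomal hydrolases 0 of 29 tested were 2-fold apart in the young pair (median 0.13), and 5 of 30 were higher and 3 lower in the old pair (median 0.42), beside 20.6% and 31.4% of all genes. Scaled by fragments in genes, 15 were higher and 1 (Ids) lower. All genes moved upward under that scaling too, with 5011 of 16488 higher and 3356 lower, against 3395 and 5171 as deposited. Naglu and Gusb, which degrade glycosaminoglycans, were 4.28-fold (3.69 to 4.99) and 5.86-fold higher (5.15 to 6.70), and Ids, of the same pathway, 5.26-fold lower (5.04 to 5.49). Acp5, an acid phosphatase of macrophages and osteoclasts, had 1 and 378 reads (254-fold, with an interval from 45.4 upward). It is among the 5 called higher, but reached 1 FPKM in the old tumor-bearing library alone and so had to be higher. Among 23 tested membrane and acidification genes, 0 were 2-fold apart in the young pair, and 4 were higher and 8 lower in the old pair (median -0.25), the lower ones at a share near that of all genes. Scaled by fragments in genes, 8 were higher and 3 lower (median 0.32, beside 0.26 over all genes), and Atp6v0a1 and Atp6v0d1 were among the 3. Cd63 and Cd68, membrane proteins of late endosomes and macrophage lysosomes, were 6.79-fold (6.26 to 7.38) and 6.23-fold higher (5.23 to 7.48), whereas the proton pump subunits Atp6v0a1 and Atp6v0d1 were 4.50-fold (4.34 to 4.67) and 3.37-fold lower (3.18 to 3.57). Of 11 regulators tested, 0 were higher and 2 lower in the old pair: Rragd (6.83-fold, 6.27 to 7.45) and Mtor (2.28-fold, 2.16 to 2.41), of which Rragd alone was past 2-fold under the other 4 scalings. Over all genes 20.6% were higher and 31.4% lower. Tfeb, the transcription factor of lysosomal genes, was 1.72-fold higher (1.47 to 2.01).

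Cathepsins also act in antigen presentation and innate sensing. In the MHC class II list, 6 of 8 tested genes were at least 2-fold higher in the young pair (median 2.94) and 11 of 11 in the old (median 4.25). Over all genes tested, 5.05% were that much higher and 1.85% lower in the young pair, and 20.6% and 31.4% in the old. H2-Aa was at 1.17, 24.2, 1.40 and 144 FPKM, and Ctss, at 2.22-fold and 5.67-fold higher, differed far less than it. Cathepsins also cleave endosomal Toll-like receptors, and all 5 tested genes of that list were at least 2-fold higher in the old pair and 0 of 3 in the young pair. Unc93b1, the chaperone on that list, was 1.81-fold (1.58 to 2.08) and 3.92-fold higher (3.50 to 4.42). Granule serine proteases include substrates of cathepsin C. That list had 1 tested gene in the young pair and 9 in the old pair, 7 of them higher and 1 lower. A gene near 0 in naive tissue passes the floor only by being high in the other library. In the old pair this holds for 4 of the 11 MHC class II, 2 of the 5 Toll-like receptor and 7 of the 9 granule protease genes. The MHC class II and Toll-like receptor counts are therefore partly set by the floor. The 7 granule protease genes are the 7 called higher, so that count is wholly set by it. The 1 called lower, Prtn3 (1.11 and 0.472 FPKM), reached 1 FPKM in the old naive library alone and so had to be lower. In the young pair Ciita, 1 of the 6 MHC class II genes called higher, also reached 1 FPKM in the tumor-bearing library alone.

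**Figure D5:**
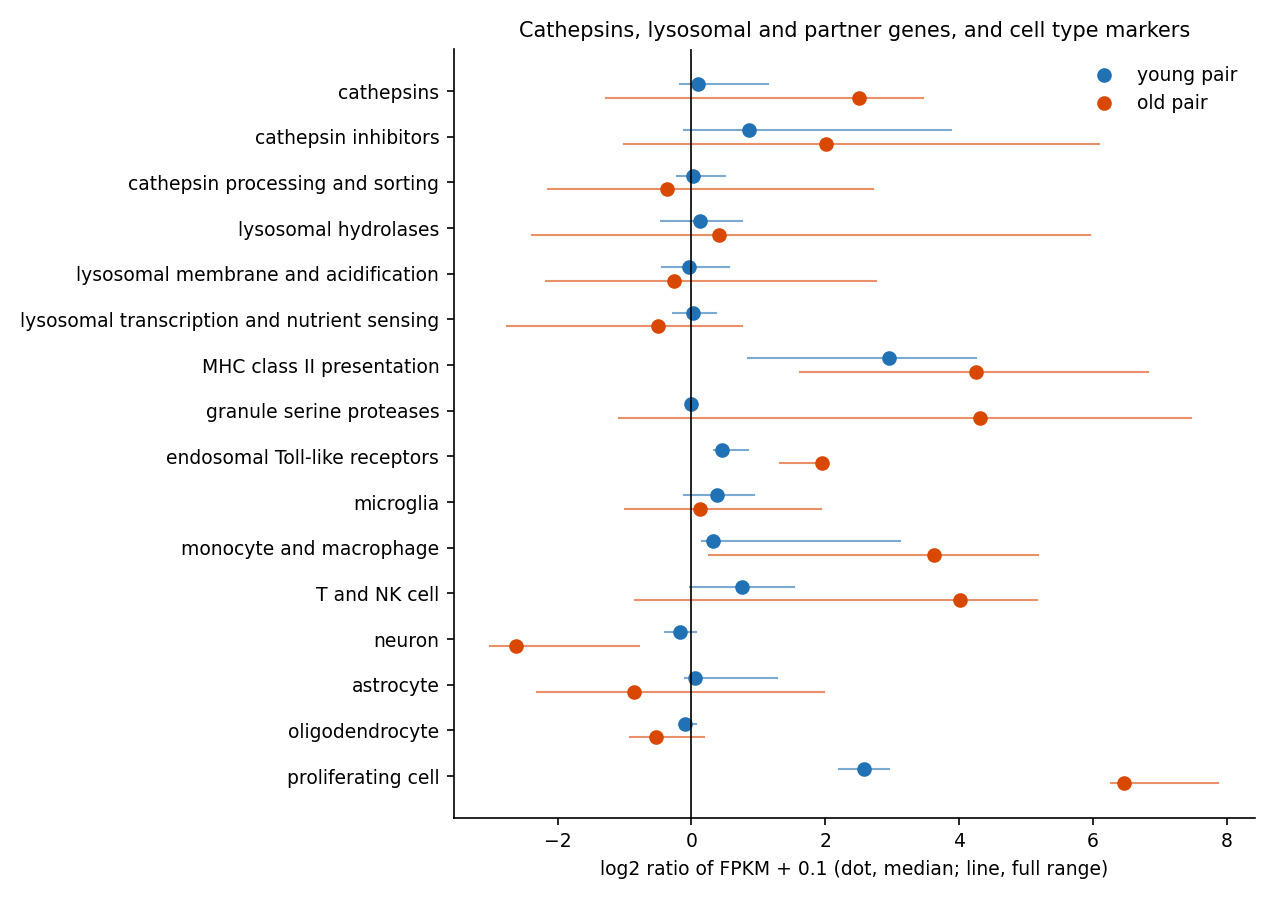
Median (dot) and full range (line) of the log2 ratio of FPKM + 0.1 of tested genes in each list, for the young and the old pair. In the old pair the cathepsin median (2.50) lies near that of cathepsin inhibitors (2.01) above those of lysosomal hydrolases (0.42), membrane genes (-0.25) and microglia markers (0.13), and below those of monocyte and macrophage markers (3.62), MHC class II (4.25) and granule proteases (4.31). Most tested granule proteases and monocyte and macrophage markers, and some MHC class II genes and inhibitors, passed the floor through the old tumor-bearing library alone. Their medians are partly set by this.

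For each member the 3 protein-coding genes with the nearest profile over the 4 libraries were taken from 11159 genes at 1 FPKM or more in all, by the distance between centred log2 levels. Those of Ctss were Fcgr1 (0.18), the high-affinity IgG receptor, Irf5 (0.21), an interferon regulatory factor, and Mpeg1 (0.21), a pore protein of macrophages. Only 40 genes lay within 0.5 of Ctss. Ctsh was nearest to Lcp1 (0.13), an actin-bundling protein of leukocytes, followed by Ckap4 and Kifc5b. Those of Ctsz were Galk1, Rfc3 and Sox10 (0.07 to 0.16).

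The remaining profiles were either rare or common. Ctsc had only 4 genes within 0.5, with Tspan4 nearest at 0.34, then Slc14a1 and Prim1. Ctsa, Ctsb, Ctsd and Ctsk had 1652, 2241, 553 and 2103 such genes. Their nearest were Tlnrd1, Epb41l2 and Zfp512 for Ctsa, Atp5g2, Rpl3 and Becn1 for Ctsb, Rps26, Myd88 and Pfn1 for Ctsd, and Tk2, Asb13 and Plekhm2 for Ctsk. For Ctse, with at most 17 reads, the nearest profiles are set by the added 0.1 and are not given. Among members, Ctsa and Ctsb were the closest pair (0.27), then Ctsl and Ctsz (0.37), and Ctsk and Ctsl the farthest (3.53).

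Ctsk and Ctss are neighbours on chromosome 3, on the same strand and 17423 bases apart. Ctsk had 77, 80, 77 and 45 reads and Ctss 1020, 2211, 1081 and 9103, so the old tumor-bearing library had the highest level of Ctss and the lowest of Ctsk. Ctsc and Ctsd lie on chromosome 7 and Ctsa and Ctsz on chromosome 2, in both cases far apart. Neither pair had closer profiles (1.45 and 1.88) than Ctsl and Ctsz, which lie on different chromosomes.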

How the data were processed

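Poly-A RNA of brain tissue was sequenced as paired-end libraries, 1 per group; groups were taken from the sample titles. The deposited values are FPKM per Ensembl gene, with a column for each library, per the file headers. The submitters' processing notes name HISAT2 and mm10. Which program counted, with what annotation and filters, and whether mice were pooled, is not given in the sources used here. GENCODE M21, on the same assembly, gave symbols to 54409 of 54532 genes, and exon lengths. FPKM times exon length came in whole steps in each library, within 0.03 reads or 2e-05 of the value for 31883 of 32801 genes above 0 (97.2%) and for all 10 members, which gave reads and the authors' divisor. The divisor was 0.879, 0.914, 0.798 and 1.19 times the fragments in genes (young naive, young tumor-bearing, old naive, old tumor-bearing). For a 1 kb gene, 3 reads, the limit a count of 0 allows, equal 0.147, 0.150, 0.192 and 0.129 FPKM.

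No count test was run, since each group is 1 library. Log2 ratios used FPKM + 0.1, a floor of 1 FPKM in either library, and counts at 2-fold. Intervals are exact conditional binomial (folds) or Poisson (levels) at 95%. Reads lacking molecular identifiers may be copies of 1 molecule, and mice are not in these intervals. The recovery was tested on simulated data. Python 3.11.15, pandas 2.3.3 and SciPy 1.17.1 were used. Members, lists and motifs were chosen with earlier results of these data known. Genes named were the 10 members, other cathepsins at 1 FPKM, up to 4 genes per list with the largest ratio in each tumor comparison (not all are described) and the 3 nearest profiles per member, with others said to be chosen later. The nearest profiles of Ctsl are not reported here. Alternatives were other added values, floors and scalings. Scaling by fragments in genes, and the scalings of lists and of other genes, were added after seeing the data.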

Additional observations from a re-analysis of the deposited data

Results flagged for a closer look

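Only the members and the genes named by rule were searched here, and most of the latter were picked for large ratios in these data. Other listed genes were left out, such as the mannose phosphate receptor M6pr (log2 ratios of -0.13 in the young and 0.42 in the old pair). The share over all genes was not counted. Some of the genes searched went in opposite directions in the young and the old pair, each beyond counting error as deposited. With 1 library per group this difference was not tested. Among the members this was so for Ctsb, whose old log2 ratio of tumor-bearing to naive tissue was 0.66 above the young one. Of the other cathepsins it was so for Ctsf (-1.92). The sorting genes Igf2r (-1.41) and Gnptg (-1.62) and the regulators Mitf (-0.87) and Mtor (-1.26) were higher in the young and lower in the old pair. Lipa, the lysosomal acid lipase, was lower in the young and higher in the old pair (1.57). Both directions stayed beyond counting error under the other 4 scalings for Ctsb, Ctsf, Igf2r, Gnptg and Lipa. For Mitf they did not: its old ratio was within counting error under all 4 and was 1.03 (0.839 to 1.26) when scaled by fragments in genes. For Mtor the young ratio was within counting error under median-of-ratios scaling (1.03, 0.976 to 1.08).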

How the results depend on the processing

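No paired analysis was possible because each group has 1 library, and none could be left out for the same reason. Of 351 single-member values under the alternatives, 344 kept their sign, 20 crossed 2-fold and 0 of those at least 2-fold apart turned. The 7 that changed sign were of Ctsd in the young pair and Ctsb in naive tissue. The 20 crossings were of Ctsk, Ctsc, Ctsa and Ctsb, with Ctsa and Ctsb going past 2-fold upward and so adding to the higher counts. In the old pair, Ctsk was the member at least 2-fold lower, and the count became 0 with 1 added to FPKM, a floor of 5 FPKM, equal FPKM totals, median-of-ratios scaling, the protein-coding total and fragments in genes. The median of 2.50 became 2.33 with 1 added, 2.10 with no floor, 2.60 with a floor of 5, and 2.93, 2.88, 2.82 and 3.08 under those scalings in that order. For old against young ratios, the lower count became 0 with 1 added, a floor of 5, median-of-ratios and fragments in genes. That median of 1.73 became 1.54 with no floor, 2.01 with a floor of 5, and 2.11, 2.16, 1.98 and 2.25 under the scalings. Between tumor-bearing libraries 1 member was lower with 0.01 added, and the median of 1.75 became 2.14 (median-of-ratios) and 2.13 (fragments in genes). The young pair's median became 0.25 with no floor. In naive tissue the median became 0.15 with no floor or a floor of 5, -0.21 with equal totals (1 member lower, Ctsc), -0.10 with the protein-coding total and -0.12 with fragments in genes. Ctss held 4.10%, 8.95%, 5.46% and 11.5% of cathepsin reads, not per length, since its exons are short. Over all genes, equal totals gave 712 higher and 1019 lower in naive tissue against 1035 and 760 as deposited. Fragments in genes gave 4220 and 3528 against 3155 and 4941 between tumor-bearing libraries, and 4950 and 3915 against 3372 and 5583 for the age difference. In the young pair, 1 added gave 417 and 139, no floor 3407 and 1626, and a floor of 5 gave 119 and 28, against 783 and 286. No floor gave 6262 and 8014 and a floor of 5 gave 1945 and 3240 in the old pair, and 5545 and 8271 or 1875 and 2900 between tumor-bearing libraries. The corresponding counts were 3124 and 2729 or 294 and 195 in naive tissue (528 and 422 with 1 added), and 6500 and 9518 or 1917 and 3295 for the age difference. Depth limits Ctse (at most 17 reads) and Ctsk (at most 80).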
